A study of Mus musculus with 35 samples.

Results

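Gene expression of SCA7 mice was set against that of WT mice at P8, the neonatal age of the study, in the libraries titled medulla at that age. These were 4 of the 35 libraries of the series, 2 from SCA7 and 2 from WT mice, taken by their titles alone, and each came from a different mouse. The series counted RNA-seq reads per gene in the medulla and the cervical spinal cord of SCA7 and WT mice at P8, 5 weeks and 9 weeks, to follow how transcription changes in the regions that hold the motor neurons of breathing. SCA7 mice carried the 266Q/5Q knock-in, with an expanded CAG repeat in 1 allele of *Atxn7* at its own locus and the normal mouse allele on the other chromosome. WT mice were wild-type littermates, all 4 mice were C57Bl/6J, and the labels name no treatment. The knock-in allele is not limited to a cell type, and the tissue was counted in bulk, so that fewer cells of a type and less RNA per cell cannot be told apart. The libraries are called WT 1, WT 2, SCA7 1 and SCA7 2 below.

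SCA7 is a dominantly inherited polyglutamine disease that damages the cerebellum, the brainstem and the retina. Its protein, ataxin-7, holds the deubiquitinase module on SAGA, a coactivator that acetylates and deubiquitinates histones at active genes. In the first weeks of life oligodendrocytes of the mouse brainstem and spinal cord wrap axons with myelin, astrocytes take on the transporters that clear glutamate and glycine, and neurons build synapses, so a library from a pup records genes in the middle of these programmes.

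The repeat lies in the first coding exon of *Atxn7*. In the mouse reference it is a run of 5 CAG codons at chr14:14013156-14013170 on the plus strand (GRCm38), in exon 2 of the transcripts *Atxn7*-201 and *Atxn7*-202 and in exon 3 of *Atxn7*-203. The stretch is shown because it is the site that the knock-in lengthens, with the CAG codons in capitals and read 5′ to 3′ from base 58 of the coding sequence.
Atxn7: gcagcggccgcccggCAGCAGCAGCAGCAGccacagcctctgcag
A count per gene adds up the reads of both alleles, so the level of *Atxn7* does not check the genotype label. *Atxn7* stood at 35.0 CPM in WT 1 (counts scaled to 1000000 per library, with the library sizes adjusted by the trimmed mean of M values, TMM), 37.2 in WT 2, 39.1 in SCA7 1 and 67.9 in SCA7 2, where it rests on 6 counts. The log2 fold change, SCA7 over WT, was 0.22 with an SE of 0.23 (2 against 2 libraries, edgeR quasi-likelihood test, Benjamini-Hochberg adjusted p = 1), so the gene's level was not distinguishable between the genotypes.

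The tissue label was then compared with genes that mark position along the body axis. *Hox* genes of paralog groups 6 to 10 pattern the spinal cord from the brachial segments down and are largely silent in the hindbrain, whereas *Dbh* and *Tph2* mark noradrenergic and serotonergic neurons of the brainstem. *Hoxc8* stood at 75.9 and 169 CPM of the library total in WT 1 and WT 2 and at 204 and 167 CPM in SCA7 1 and SCA7 2. In the 3 P8 libraries labelled cervical spinal cord it had 1 count in the WT library (0.0262 CPM) and none in both SCA7 libraries. At 9 weeks it ran from 12.5 to 161 CPM in the 10 libraries labelled cervical spinal cord and was at most 0.0279 CPM in the 10 labelled medulla. The summed paralogs 6 to 10 gave 575, 682, 946 and 751 CPM in the 4 P8 libraries labelled medulla, against 135, 40.2 and 104 CPM in the 3 labelled cervical spinal cord. *Dbh* had 16, 0, 1 and 0 counts in the former, and 374, 1 and 0 counts (9.79, 3.09 and 0 CPM) in the latter. On the *Hox* genes the P8 libraries labelled medulla thus lay within or above the range of the later spinal cord libraries, and went against their label. Their summed brainstem monoamine genes gave 39.7, 41.3, 30.9 and 20.9 CPM. These sums were at most 30.5 CPM in the 9-week libraries labelled cervical spinal cord and 22.7 to 363 CPM in those labelled medulla. The cause was not tested, and no value here checks the genotype labels. All results below are for the libraries labelled medulla, whose tissue is not settled by these data.

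**Figure D1:**
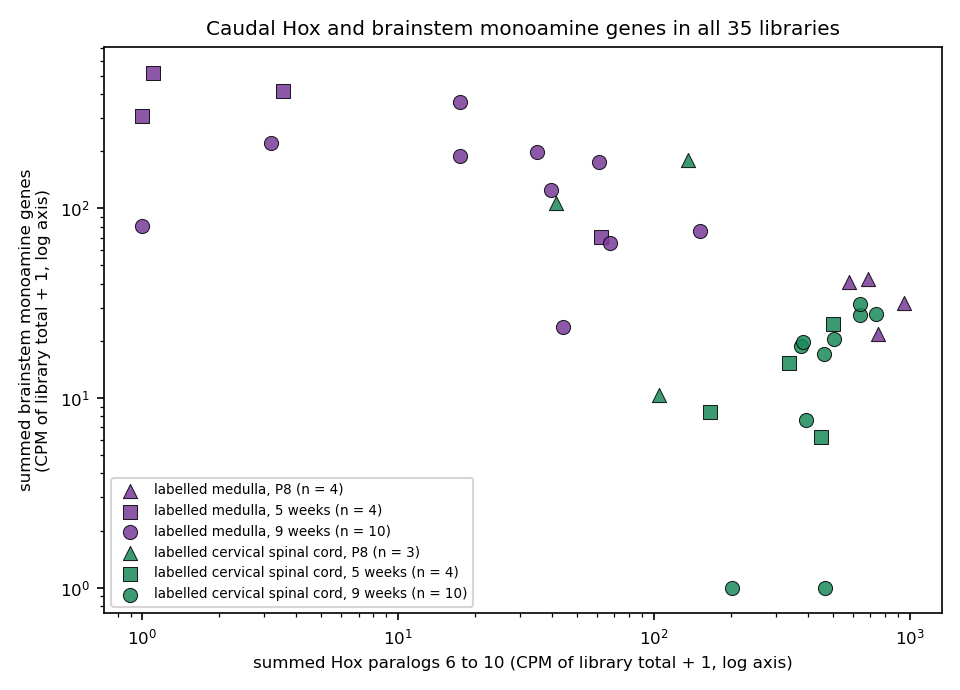
Summed CPM of the library total, plus 1, of the *Hox* genes of paralog groups 6 to 10 (x axis, log scale) against that of brainstem monoamine genes (y axis, log scale); each point is 1 of the 35 libraries, coloured by labelled tissue and shaped by age. The 4 P8 libraries labelled medulla, at 575 to 946 CPM on the x axis, sit beside the later libraries labelled cervical spinal cord.

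Depth differed strongly between the libraries. WT 1 held 99353286 counts, WT 2 35563904 and SCA7 1 31475056, while SCA7 2 held 95917, where 3 counts are worth 31.3 CPM of the library total. Of 2397 genes that averaged at least 100 CPM in the 3 deep libraries, SCA7 2 lay more than 2-fold above all of them for 21 genes and more than 2-fold below all of them for 174. SCA7 1 did neither for any gene, and WT 2 lay above for 13. The 13 genes of the mitochondrial genome summed to 37635, 42016 and 31560 CPM in WT 1, WT 2 and SCA7 1 and to 153320 CPM in SCA7 2. Of these, *ATP8* had 8, 0 and 2 counts in WT 1, WT 2 and SCA7 1 and 171 counts in SCA7 2. The gene *Gm10080* stood at 0.242, 0.281 and 0.477 CPM of the library total in WT 1, WT 2 and SCA7 1. In SCA7 2 it stood at 136 CPM. SCA7 2 thus differed from the deep libraries in which genes were counted as well as in depth, and the cause was not tested. *Xist*, the transcript of the inactive X chromosome, stood at 573, 630, 503 and 475 CPM in the 4 libraries, and of the Y-linked genes *Ddx3y*, *Eif2s3y*, *Kdm5d* and *Uty* there were only 2 counts, of *Ddx3y* in SCA7 2.

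Tissue from outside the central nervous system was present in unequal amounts, within as well as between the genotypes. Markers of meningeal fibroblasts, led by the collagen gene *Col1a1*, summed to 305, 2972, 451 and 2162 CPM in WT 1, WT 2, SCA7 1 and SCA7 2. Schwann cell markers summed to 133, 733, 125 and 1687 CPM. Skeletal muscle markers summed to 24.7, 2097, 30.8 and 90.6 CPM, so muscle RNA stood out in WT 2. Red blood cell genes were nearest to level, at 647, 1127, 737 and 691 CPM. All 12 meningeal, 10 Schwann cell and 10 muscle genes were tested and none passed. WT 1 and SCA7 1 were the pair with the lowest sums of all 3 kinds of marker.

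**Figure D2:**
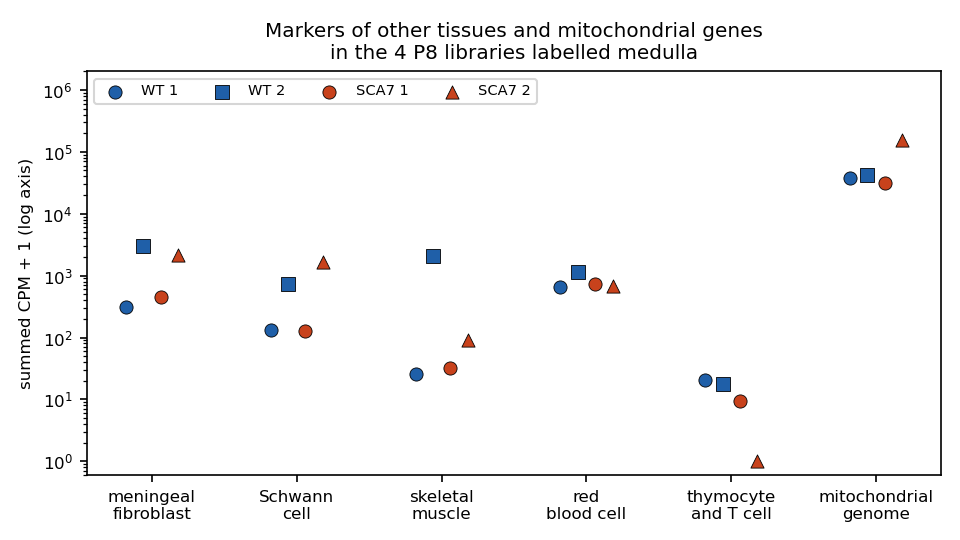
Summed CPM, plus 1, on a log axis of 6 gene lists in each of the 4 P8 libraries labelled medulla, with WT in blue and SCA7 in red. Meningeal and Schwann cell markers are high in WT 2 and SCA7 2, muscle markers in WT 2 and mitochondrial genes in SCA7 2, at 153320 CPM.

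No gene passed the test between SCA7 and WT libraries at P8. Of the 20564 genes that reached 10 counts in any of the 4 libraries, 0 had an adjusted p under 0.05 in edgeR's quasi-likelihood test (0.00%), and DESeq2 also called 0. At an unadjusted p under 0.05 there were 559 genes (2.72%), 326 of them lower (1.59%) and 233 higher (1.13%) in SCA7. DESeq2 gave 206, with the opposite balance of 30 lower and 176 higher. For comparison, the same test called 1335 of 19157 genes (6.97%) between 5 SCA7 and 5 WT libraries labelled medulla at 9 weeks and 968 of 19263 (5.03%) in those labelled cervical spinal cord. At 5 weeks, with 2 against 2 libraries, it called 156 of 18432 (0.846%) and 124 of 17162 (0.723%). Of those labelled medulla, both SCA7 libraries were shallow (104602 and 114681 counts) and both WT libraries deep (38162996 and 35923599). Genotype and depth thus cannot be told apart there. Of those labelled cervical spinal cord, the SCA7 libraries held 140097 and 191576 counts and the WT libraries 133861 and 29571748. With 2 libraries a side an exact permutation test of a single gene cannot go below 0.333, two-sided, and the biological coefficient of variation was 32.1%. Both SCA7 libraries lay below both WT libraries for 6141 genes (29.9%) and above both for 2265 (11.0%), and a low gene with no count in SCA7 2 falls into the first class. Among the 2397 well-counted genes, those averaging at least 100 CPM in the deep libraries, the shares were 19.4% below and 22.8% above. Counts over a whole list are read against the shares of all genes, and counts over its well-counted members against these. Of these 2397 genes 67 had an unadjusted p under 0.05 (2.80%). The median log2 fold change over all genes was -0.05. The count of 0 was not kept when 1 library was left out: it was 251 without WT 1, 60 without WT 2 and 12 without SCA7 1, led by mitochondrial and muscle genes and pseudogenes, and 0 without SCA7 2.

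The myelin structure list had the lowest median among the lists of neurons and of central glia. None of the 20 genes for the structure of central myelin passed the adjusted test. At an unadjusted p under 0.05, 9 of the 20 were lower in SCA7 (1.59% of all genes) and 0 were higher. Of the 20, 14 had both SCA7 values below both WT values (29.9% of all genes), and none had both above. Of the 15 that were well counted, 10 had both SCA7 values below both WT values (19.4% of well-counted genes). The median log2 fold change of the list was -0.52, against -0.05 over all genes.

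*Mal*, which encodes a small proteolipid that sorts proteins into the myelin membrane (chr2:127633226-127656695), gave 520 and 454 CPM in WT 1 and WT 2 and 313 and 272 CPM in SCA7 1 and SCA7 2. Its log2 fold change was -0.71 (SE 0.21, unadjusted p = 0.0136 and adjusted p = 1 in edgeR's quasi-likelihood test). *Ugt8a*, the enzyme that makes galactosylceramide, the chief glycolipid of myelin (chr3:125865272-125938682), stood at 828 and 712 CPM in WT and at 519 and 442 CPM in SCA7. For both genes the groups did not overlap, as the rule that named them required, and the gap between the genotypes was wider than that between the libraries of either. *Mog*, a glycoprotein of the outermost myelin layer, was at 308 and 265 CPM in WT and at 193 and 113 CPM in SCA7, the last from 10 counts. *Trf*, transferrin, the iron carrier that oligodendrocytes make, gave 788 and 621 CPM in WT and 477 and 430 CPM in SCA7. *Enpp2*, the lysophospholipase autotaxin that oligodendrocytes secrete, is no member of the list but came up by the rule for genes with at least 10 counts in all 4 libraries, with 544 and 481 CPM in WT and 345 and 238 CPM in SCA7. The log2 fold changes of *Ugt8a*, *Mog*, *Trf* and *Enpp2* ran from -0.75 to -0.62, with SEs of 0.22 to 0.26, and none passed the adjusted test.

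The genes of myelin basic proteins did not follow in SCA7 2. *Mbp*, for myelin basic protein, which binds the inner faces of the membrane together, was at 15654 and 12929 CPM in WT, 10898 CPM in SCA7 1 and 44650 CPM in SCA7 2, a log2 fold change of 0.96 (SE 0.61). *Mobp*, for another basic protein of myelin, gave 2780 and 2295 CPM in WT, 1869 CPM in SCA7 1 and 2468 CPM in SCA7 2. SCA7 1 was below both WT libraries in both genes, and SCA7 2 was above both in *Mbp*. Schwann cells make *Mbp* too, their markers summed to 1687 CPM in SCA7 2 and to 125 CPM in SCA7 1, and their part in these values was not tested. Among the WT libraries labelled medulla at 9 weeks, too, the shallow libraries, those under 1000000 counts, had the higher *Mbp* and mitochondrial values. There *Mbp* ran from 15588 to 28041 CPM of the library total in 3 shallow libraries and from 8532 to 10233 CPM in 2 deep ones, and the mitochondrial genes from 193680 to 206340 CPM and from 35581 to 40017 CPM. Without SCA7 2 all 20 genes of the list had a log2 fold change below 0, as had 10953 of all genes, with a median of -0.48 for the list and *Mbp* at -0.38. Leaving out SCA7 1 instead gave a list median of -0.70, beside a median of -1.39 over all genes, and it was -0.33 without WT 1 and -0.70 without WT 2.

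**Figure D3:**
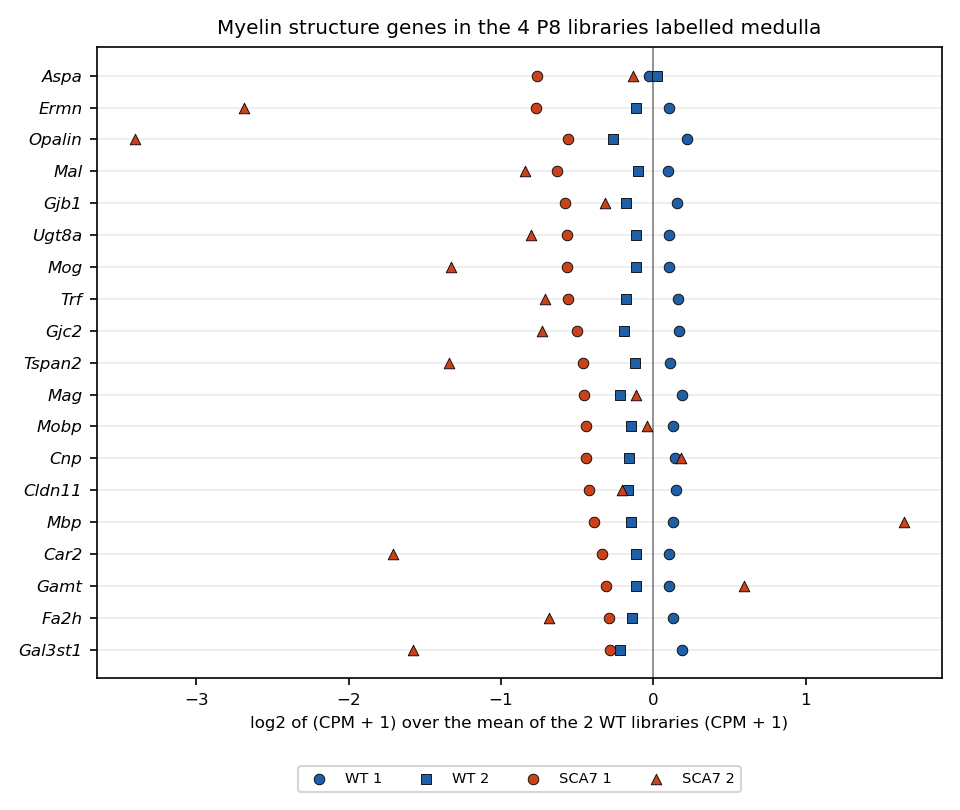
Log2 of CPM plus 1 of each P8 library labelled medulla over the mean of the 2 WT libraries (x axis) for 19 of the 20 myelin structure genes (y axis), with WT in blue and SCA7 in red. SCA7 1 (red circles) lies left of both WT libraries for all 19 genes, while SCA7 2 (red triangles) lies right of them for *Mbp*, *Cnp* and *Gamt*.

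Lists of earlier stages of the oligodendrocyte lineage had medians nearer to that of all genes. Of 12 genes of premyelinating and committed oligodendrocytes, 6 had both SCA7 values below both WT values (29.9% of all genes) and none had both above, while of the 7 well counted 2 lay below (19.4%). The median log2 fold change was -0.31, and it was -0.14 without WT 1 and -0.73 without SCA7 1. *Enpp6*, a choline phosphodiesterase of newly formed oligodendrocytes, was at 226 and 198 CPM in WT and at 156 and 90.6 CPM in SCA7 (log2 fold change -0.60, SE 0.25). *Bcas1*, which marks cells that are starting to myelinate, was at 527 and 437 CPM in WT and at 393 and 396 CPM in SCA7. Of 12 genes of oligodendrocyte precursors, 3 lay below and 1 above, with a median of -0.16 that was 0.01 without WT 1. *Olig1*, a transcription factor of the whole lineage, gave 487 and 376 CPM in WT and 401 and 362 CPM in SCA7, and the groups overlapped. Cholesterol is the main lipid of myelin, and 11 of 20 genes of its synthesis had both SCA7 values below both WT values (29.9% of all genes). Of the 12 well counted 9 lay below (19.4% of well-counted genes). The median of the list was -0.20, and it was -0.09 without WT 1. *Hmgcs1*, an early enzyme of the pathway, was at 1494 and 1401 CPM in WT and at 1150 and 1200 CPM in SCA7 (log2 fold change -0.30, SE 0.21).

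Astrocyte genes lay close to the median of all genes. Of 20 astrocyte genes 4 had both SCA7 values below and 1 had both above the WT values, with a median log2 fold change of -0.12 that was 0.03 without WT 1. *Aqp4*, the water channel of astrocyte endfeet, was at 1539 and 1429 CPM in WT and at 1095 and 1098 CPM in SCA7 (log2 fold change -0.44, SE 0.21). *Gfap*, the intermediate filament of astrocytes, was at 2220 and 2246 CPM in WT and at 1548 and 2072 CPM in SCA7 (-0.31, SE 0.24). *S100b*, a calcium-binding protein, gave 252 and 213 CPM in WT and 176 and 147 CPM in SCA7 (-0.47, SE 0.20). These genes did not overlap between the groups, and none passed the test. *Atp1b2*, a subunit of the sodium pump of astrocytes, was the member above both WT values, at 816 and 653 CPM in WT and 855 and 951 CPM in SCA7 (0.29, SE 0.23).

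The transporters that clear glutamate and glycine showed no common direction. Of 24 amino acid and neurotransmitter transporters, 3 lay below and 2 above both WT values, and the median log2 fold change was 0.00. *Slc1a2*, the main glutamate transporter of astrocytes, was at 1698 and 1279 CPM in WT, 1388 CPM in SCA7 1 and 543 CPM in SCA7 2, the last from 48 counts, and its log2 fold change moved from -0.58 (SE 0.43) to -0.09 without SCA7 2. *Slc1a3*, its partner at this age, was at 413 and 320 CPM in WT and at 357 and 408 CPM in SCA7. *Slc6a9*, the glycine transporter of glia, gave 305 and 216 CPM in WT and 274 and 362 CPM in SCA7, and *Slc7a10*, a small neutral amino acid exchanger, gave 155 and 114 against 140 and 102 CPM. The WT and SCA7 values overlapped for each of these 4 genes. *Kcnj10*, the potassium channel of astrocytes, stood at 425 and 319 CPM in WT and 345 and 181 CPM in SCA7. *Slc7a11*, the cystine and glutamate exchanger, was at 21.5 and 27.5 CPM in WT and at 17.0 and 34.0 CPM in SCA7, the last from 3 counts. *Slc7a6* and *Slc25a18*, an amino acid exchanger and a mitochondrial glutamate carrier, had log2 fold changes of -0.01 and 0.01. *Slc6a3*, the dopamine transporter, was below 1 CPM in all 4 libraries.

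Genes of inhibitory transmission differed in their sides. *Slc12a5*, the chloride extruder of mature neurons, gave 486 and 387 CPM in WT and 608 and 623 CPM in SCA7 (log2 fold change 0.49, SE 0.22, unadjusted p = 0.0615 in edgeR's quasi-likelihood test). *Slc12a2*, the chloride importer that prevails in immature neurons and in glia, gave 231 and 214 CPM in WT and 159 and 170 CPM in SCA7 (-0.46, SE 0.19). *Gad1*, the enzyme that makes GABA, was at 92.5 and 103 CPM in WT and at 157 and 125 CPM in SCA7 (0.61, SE 0.18). In all 3 genes the groups did not overlap. Over the list of 15 genes 3 lay below and 3 above both WT values, and the median was 0.10. Of 14 glutamate receptor subunits 0 lay below and 2 above (11.0% of all genes), with a median of 0.24 that was -0.06 without SCA7 1, where that of all genes was -1.39. The 2 included *Grin2d*, an NMDA receptor subunit of young neurons, at 111 and 95.7 CPM in WT and 141 and 158 CPM in SCA7.

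Genes of growing axons lay mostly above WT, those of neurons in general less so, and none passed the test. Of 15 genes of immature neurons and axon growth 9 had both SCA7 values above both WT values (11.0% of all genes) and 0 had both below. Of the 10 well counted 8 lay above (22.8% of well-counted genes), and the median log2 fold change of the list was 0.34. *L1cam*, an adhesion molecule of growing axons (chrX:73853778-73880838), gave 175 and 176 CPM in WT and 263 and 306 CPM in SCA7 (0.66, SE 0.19, unadjusted p = 0.0120 in edgeR's quasi-likelihood test). *Dpysl3*, a mediator of growth cone guidance, gave 571 and 545 CPM in WT and 708 and 702 CPM in SCA7. Both genes had WT libraries within a few percent of each other. Of the 15 general neuronal genes, all well counted, 4 lay above (22.8% of well-counted genes) and 0 below (19.4%), with a median of 0.09. It was 0.34 without SCA7 2, where the median of all genes was -0.02, and -0.23 without SCA7 1, where that of all genes was -1.39. *Syn1*, which tethers synaptic vesicles, stood at 252 and 218 CPM in WT and 346 and 396 CPM in SCA7 (0.64, SE 0.20). *Nefm*, a neurofilament subunit, gave 2072 and 1448 CPM in WT and 2237 and 2660 CPM in SCA7, a gap smaller than that between the WT libraries. *Snap25*, a protein of vesicle fusion, gave 634 and 563 CPM in WT, 711 CPM in SCA7 1 and 306 CPM in SCA7 2.

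The rule for genes with at least 10 counts in all 4 libraries also named *Gprin1*, *Sez6*, *Slc8a2* and *Stum* on the higher side, of which the first is a G protein partner in neurite growth, the second a neuronal surface protein of dendrites and synapses and the third a sodium and calcium exchanger of neurons. *Sez6* gave 96.2 and 95.7 CPM in WT and 144 and 158 CPM in SCA7. *Slc8a2* gave 74.1 and 68.5 CPM in WT and 107 and 147 CPM in SCA7. The SCA7 2 values of these 4 genes rest on 10 to 21 counts. A list of 26 synaptic vesicle and scaffold genes was drawn up after these values were seen and is given without a test. Its median was 0.33 (0.07 without SCA7 1), and 13 of its 26 members lay above (11.0% of all genes) and 0 below both WT values. Of its 22 well-counted members 11 lay above (22.8% of well-counted genes). *Bsn*, a scaffold of the presynaptic active zone, gave 141 and 124 CPM in WT and 196 and 272 CPM in SCA7.

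The gene with the smallest unadjusted p on the higher side was *Hoxb9*, a *Hox* gene of the cervical and thoracic cord (chr11:96271330-96276595). It stood at 42.6 and 60.2 CPM in WT 1 and WT 2, at 124 CPM in SCA7 1 and at 147 CPM in SCA7 2, the last from 13 counts. The log2 fold change was 1.33 (SE 0.24, unadjusted p = 0.00116 and adjusted p = 1 in edgeR's quasi-likelihood test), and the gap between the genotypes was wider than that between the libraries of either. With all 4 libraries thinned to 95917 counts it passed, at 2.22 (adjusted p = 0.00717 in edgeR). Of the 14 tested genes of paralogs 6 to 10, 5 lay above (11.0% of all genes) and 1 below (29.9%) both WT values. Their median was 0.48 (0.21 without WT 1 and 0.10 without SCA7 1), and *Hoxb8* gave 215 and 191 CPM in WT and 308 and 306 CPM in SCA7. *Hoxc8*, *Hoxa9* and *Hoxc9* were lowest in WT 1, at 74.6, 4.18 and 1.53 CPM, against 160, 19.3 and 18.9 CPM in WT 2 and 201, 22.2 and 21.1 CPM in SCA7 1. *Hox* genes report the level of the cord that was dissected, and the WT libraries themselves differed in them, so the part of the dissection in these values cannot be told apart from genotype. Of 14 genes of paralogs 1 to 5, 0 lay below and 1 above, with a median of -0.12. The 9-week libraries labelled cervical spinal cord gave *Hoxb9* a log2 fold change of 0.17.

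*Pax2* and *Lbx1*, transcription factors of dorsal spinal interneurons, were among the 5 genes with the smallest unadjusted p on the higher side. *Pax2* (chr19:44746601-44838269) gave 22.4 and 23.2 CPM in WT and 40.4 and 45.3 CPM in SCA7, the last from 4 counts (0.84, SE 0.18). *Lbx1* gave 15.4 and 15.9 CPM in WT, 28.7 CPM in SCA7 1 and 22.6 CPM in SCA7 2, the last from 2 counts. The WT libraries were nearly equal for both genes. Over 20 dorsal horn interneuron genes, a list drawn up after these values were seen, the median was 0.53. Both SCA7 values lay above both WT values for 6 (11.0% of all genes) and below for 0. The median was 0.62 without SCA7 2, and -0.47 without SCA7 1, where the median of all genes was -1.39. *Pcdhgc4*, a clustered protocadherin of neuronal surfaces, gave 45.3 and 41.8 CPM in WT and 73.2 and 102 CPM in SCA7. Its exons are shared in part with the other genes of its cluster, which makes the assignment of reads uncertain. *Prr15l* completed the 5 genes on this side with 3, 3, 15 and 0 counts in WT 1, WT 2, SCA7 1 and SCA7 2.

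Genes of motor neurons, the cells at the centre of the study, were not distinguishable between the genotypes. *Chat*, which makes acetylcholine, was at 21.4 and 17.2 CPM in WT and 20.1 CPM in SCA7 1, and had 0 counts in SCA7 2, where 3 counts are worth 34.0 CPM on this TMM scale. *Slc5a7*, the choline transporter of cholinergic neurons, was at 117 and 106 CPM in WT and at 105 and 90.6 CPM in SCA7. *Prph*, an intermediate filament of motor and sensory neurons, gave 115 and 97.3 CPM in WT and 124 and 67.9 CPM in SCA7. Of 14 members 2 lay below and 1 above both WT values, the median was 0.08, and the member above was *Ret*, a receptor for glial-derived trophic factors, at 136 and 103 CPM in WT and 168 and 181 CPM in SCA7. Of 14 genes of respiratory rhythm and chemoreception 12 were tested, 1 lay below and 1 above, and the latter was *Penk*, for the opioid precursor proenkephalin, at 68.2 and 70.1 CPM in WT and 93.5 and 79.2 CPM in SCA7.

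Genes of the SAGA and ATAC coactivators showed no common direction. None of the 33 passed, 6 lay below (29.9% of all genes) and 8 above (11.0%) both WT values. An unadjusted p under 0.05 was reached by 0 in either direction. The median log2 fold change was 0.00, and only 4 of the 33 were well counted. *Usp22*, the deubiquitinase of SAGA, stood at 290 and 264 CPM in WT and 336 and 238 CPM in SCA7. *Atxn7l3*, which activates it, gave 158 and 126 CPM in WT and 181 and 215 CPM in SCA7 (0.43, SE 0.21). *Atxn7l3b*, a cytosolic relative, gave 383 and 365 CPM in WT, 419 CPM in SCA7 1 and 158 CPM in SCA7 2. The lists of cellular stress lay near the median of all genes too, with 0.05 for 15 cytosolic heat shock genes, -0.11 for 15 genes of the unfolded protein and integrated stress response and -0.08 for 15 p53 targets.

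No gene of dividing cells or of immune cells passed the test, and most had lower values in SCA7 in the reported fit. Of 16 proliferation genes 10 had both SCA7 values below both WT values (29.9% of all genes), 0 had both above, and the median log2 fold change was -0.30. Only 1 of the 16 was well counted. The proliferation median was 0.18 with thinning, 0.49 with at least 10 counts in every library and -0.30 without SCA7 2, so its direction depended on depth and filter. *Top2a*, the topoisomerase of dividing cells, was at 63.4 and 71.3 CPM in WT and at 48.5 and 34.0 CPM in SCA7, the last from 3 counts. Of 14 microglial genes 9 lay below (29.9% of all genes) and 1 above, with a median of -0.43, none of the 14 was well counted, and 6 of the 14 had 0 counts in SCA7 2. The microglial median was 1.05 with thinning and -0.38 without SCA7 2. *P2ry12*, a purine receptor of resting microglia, was at 27.1 and 25.0 CPM in WT and at 19.9 and 11.3 CPM in SCA7. Of the inflammatory mediators *Tnf* had 8, 2, 5 and 0 counts and *Il1b* 7, 7, 3 and 0 counts in WT 1, WT 2, SCA7 1 and SCA7 2, too few to be tested, and *Nos2* gave 2.02 and 2.49 CPM in WT and 1.97 CPM in SCA7 1, with 0 counts in SCA7 2. *Arg1* had 35, 25, 13 and 0 counts. Interferon-response genes were higher in WT 2 than in WT 1 and SCA7 1, with *Ifit3* at 8.22 CPM in WT 2 and at 1.10 and 1.09 CPM in the others.

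The 5 lower genes with the smallest unadjusted p all had very low counts, and 2 of them are genes of developing T cells. *Ccr9*, a chemokine receptor of thymocytes, had 73 and 22 counts in WT 1 and WT 2 and 0 counts in both SCA7 libraries, of which SCA7 1 holds nearly as many counts as WT 2. *Cd3d*, a chain of the T cell receptor complex, had 42 and 17 counts in WT and 0 in both SCA7 libraries. Both genes had an adjusted p of 1 in edgeR with all 4 libraries, and both passed when WT 1 or WT 2 was left out. *Rag1*, the recombinase that assembles antigen receptor genes, had 542, 121, 39 and 0 counts. Over 18 thymocyte and T cell genes, a list drawn up after these values were seen, the sums were 19.3 and 16.8 CPM in WT 1 and WT 2, 8.59 CPM in SCA7 1 and 0 in SCA7 2. The 3 remaining lower genes, *Gm39009*, *Gm32825* and *1810021M19Rik*, are of unknown role and had 7 to 24 counts in the WT libraries and 0 in both SCA7 libraries.

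**Figure D4:**
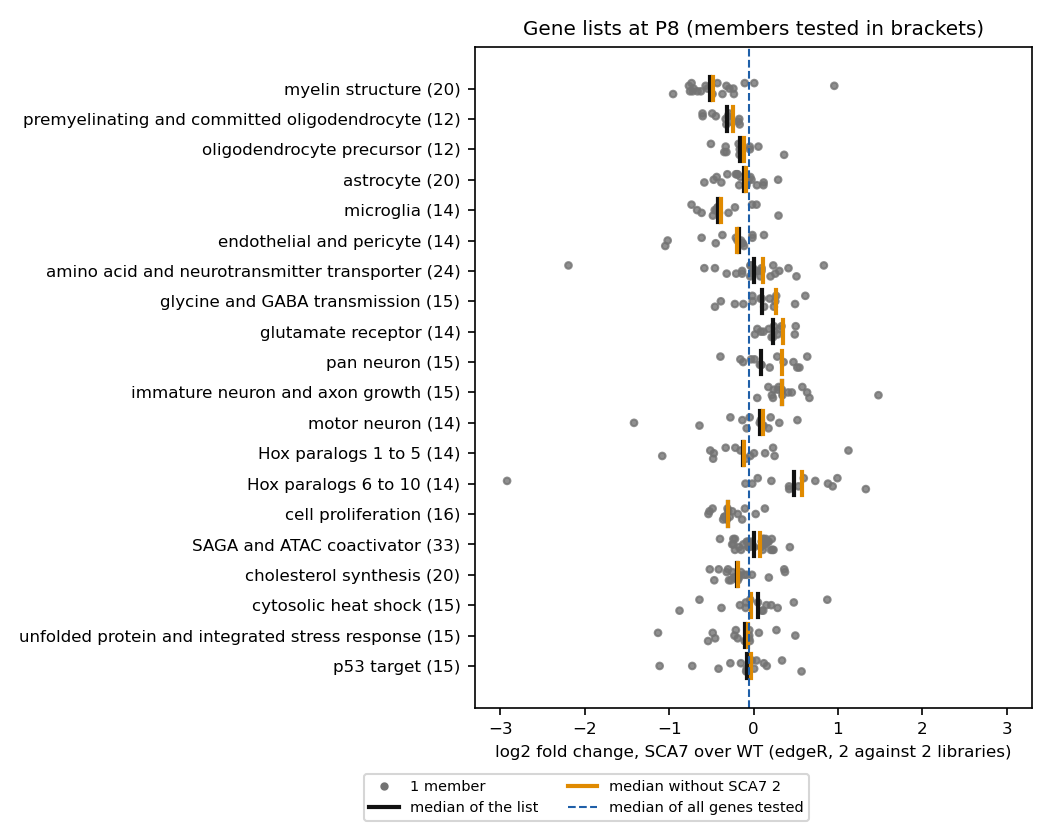
Log2 fold change, SCA7 over WT, of the members of 20 gene lists at P8 (grey points), with the median of each list (black), that median without SCA7 2 (orange) and the median of all genes tested (dashed blue line, -0.05). The myelin structure list has its median at -0.52 and the immature neuron list at 0.34, and none of the points passed the adjusted test.

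The 3 P8 libraries labelled cervical spinal cord came from mice already counted here (both SCA7 mice and that of WT 2), and with 1 WT library no test was made. The SCA7 libraries held 323231 and 105968 counts. In CPM of the library total, *Ugt8a* was at 277 CPM in WT and 124 and 217 CPM in SCA7, *Mal* at 140.1 CPM in WT and 65.0 and 84.9 CPM in SCA7, and *Mog* at 94.9 CPM in WT and 65.0 and 47.2 CPM in SCA7. *Mbp* was at 5412 CPM in WT and at 9535 and 9758 CPM in SCA7. *Mal*, *Ugt8a* and *Mog* thus lay below the WT library in both SCA7 libraries and *Mbp* above it in both, with the WT library deep and both SCA7 libraries shallow. *Slc1a2* was at 872 CPM in WT and 381 and 330 CPM in SCA7, the latter from 123 and 35 counts. *L1cam* was at 413 CPM in WT and 387 and 255 CPM in SCA7, and *Pax2* at 55.9 CPM in WT and 15.5 and 9.44 CPM in SCA7, so both lay on the other side of WT than in the libraries labelled medulla.

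The SCA7 change at P8 was then set against that at the later ages by a test of the difference itself. Over 21044 genes the change at 9 weeks minus the change at P8, in the libraries labelled medulla, passed the adjusted test for 8 genes (0.0380%), and for 5 weeks minus P8 for 0 of 20851 genes (0.00%), with 1010 lower (4.84%) and 638 higher (3.06%) at an unadjusted p under 0.05 in edgeR and 18 genes called by DESeq2. Because the P8 libraries carried the *Hox* genes of the cord, the P8 change was also set against the libraries labelled cervical spinal cord at 9 weeks, which gave 1 of 21057 genes (0.00475%). Both differences use the same P8 libraries. The change at 5 weeks carries the depth limit given above, with both SCA7 libraries labelled medulla shallow and both WT libraries deep.

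*Apod*, a lipid carrier made by oligodendrocytes and astrocytes, was the only well-counted gene among the 8. It stood at 252 and 274 CPM in WT and at 155 and 215 CPM in SCA7 at P8, a log2 fold change of -0.61 (SE 0.22), and its log2 fold change at 9 weeks was 1.09. The difference was 1.67 (SE 0.27, adjusted p = 0.0480 in edgeR's quasi-likelihood test), and 1.25 (adjusted p = 0.241) against the libraries labelled cervical spinal cord. DESeq2 called it as well. The call was lost with bias-adjusted quasi-likelihood, and when P8 WT 2, P8 SCA7 1, P8 SCA7 2 or any of 7 of the 10 9-week libraries was left out. The other 7 had at most 73 counts in any P8 library.

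No member of the 34 lists passed the test of the difference, leaving out the 4 lists drawn up after values were seen. The myelin structure list had a median of -0.52 at P8. At 9 weeks it was -1.10 in the libraries labelled medulla, where 13 of 20 fell past the threshold (6.97% of all genes, either way). It was -1.42 in those labelled cervical spinal cord, where 18 of 20 fell (5.03%, either way). The median of the difference was -0.50 with the former and -1.01 with the latter, beside 0.14 and 0.06 over all genes, and 5 of 20 genes were lower at 9 weeks at an unadjusted p under 0.05 (2.35%) and 0 were higher (5.59%). *Ugt8a* had a difference of -1.65 (adjusted p = 0.273 in edgeR), whereas *Mal* had -0.21 and *Ermn* 0.05 (both adjusted p = 1).

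Astrocyte genes, which lay near the median of all genes at P8, lay well below it at 9 weeks. Their median was -0.12 at P8. At 9 weeks it was -0.96 in the libraries labelled medulla, with 12 of 20 fallen past the threshold (6.97% of all genes, either way). It was -0.99 in those labelled cervical spinal cord, with 11 of 20 fallen (5.03%, either way). The median of the difference was -0.81 with the former and -0.96 with the latter. With the former 9 of 20 had an unadjusted p under 0.05 on the lower side (2.35% of all genes). *Slc1a2* had a difference of -1.61 (adjusted p = 0.625 in edgeR), *Kcnj10* of -1.05 (adjusted p = 0.540) and *Slc6a9* of -1.38 (adjusted p = 0.392). For the SAGA and ATAC genes the median of the difference was 0.21, and 0 of 33 were called at 9 weeks in either tissue. *Syn1*, higher in both SCA7 libraries at P8, had a difference of -1.48 (adjusted p = 0.155), and *Pax2* of -1.75 (adjusted p = 0.246). With 1 P8 library of 95917 counts these differences carry the wide error of the P8 side, and a p that misses the threshold does not show that the ages are alike.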

How the data were processed

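RNA was sequenced by the authors from flash-frozen tissue, reads were mapped to the mouse genome (mm10, GRCm38) and kept when they mapped to 1 place, and the deposited values are raw counts per gene, 35976 symbols per library and not normalized. The aligner, the counting tool and its use of strand are not given in the sources used here, so overlapping and antisense genes cannot be told apart. Groups came from the titles, with 2 SCA7 and 2 WT libraries from 4 mice. Totals ran from 95917 to 99353286 counts, and floors of 3 counts cover counting error only.

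Genes that reached 10 counts in any of the libraries fitted were tested with edgeR 4.0.16 in R 4.3.3 (quasi-likelihood test with the earlier estimator of the spread, TMM scaling, Benjamini-Hochberg adjustment, threshold 0.05). The study used DESeq2, which served as an alternative (1.42.0), beside limma 3.58.1 (voom with sample weights), other scalings and filters, thinning to 95917 counts, a replicate block and each library left out. The difference of the SCA7 change between ages was an interaction contrast over group means. The fits were run on simulated counts with less spread between libraries than estimated here (biological coefficient of variation 32.1%). Those runs cannot show how well the fits find the changes of these libraries. The 2 WT libraries differed beyond counting noise (chi-square per degree of freedom 82.7), as did the 2 SCA7 libraries (8.88), so each was counted as 1 replicate.

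Named genes were the 5 with the smallest unadjusted p in each direction, since none passed; up to 6 in each direction among genes with at least 10 counts in all 4 libraries and no overlap; *Atxn7* and transporter, myelin and inflammation genes that the study names; of each list the member of highest mean level and that of smallest p; and sex-linked genes. Some genes that the rule names are not reported here. Other list members named as examples were chosen after their values were seen. The members and the 34 lists were chosen with earlier results of these data known, and 4 further lists after their values were seen. Coordinates come from RefSeq for GRCm38.p6, where 32483 of the 35976 symbols matched, and the *Atxn7* sequence from GENCODE transcripts of GRCm38.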

Additional observations from a re-analysis of the deposited data

Results flagged for a closer look

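The summed *Hox* paralogs 6 to 10 of the 5 SCA7 libraries labelled medulla at 9 weeks had a highest library of 150 CPM that stood apart from the other 4 by Dixon's test, a mark that chance gives to about 1 in 20 groups.

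The SCA7 change differed between 9 weeks and P8, by the interaction test of edgeR, for 8 genes. The log2 difference, 9 weeks minus P8, was 1.67 for *Apod*, which had 25473, 10219, 4967 and 19 counts in WT 1, WT 2, SCA7 1 and SCA7 2. It was 7.92 for *Il5* (16, 3, 0 and 0 counts), 8.16 for *Treml1* (11, 11, 0 and 0), 7.06 for *1810021M19Rik* (24, 13, 0 and 0) and 6.97 for *Ccr9* (73, 22, 0 and 0). With both SCA7 libraries at 0 these 4 sizes depend on the prior count and are no bounds. It was 4.88 for *Il17b* (11, 3, 2 and 0 counts), 4.88 for *D6Ertd474e* (26, 22, 4 and 0) and -5.69 for *Gm40233* (52, 12, 19 and 0). Against the 9-week libraries labelled cervical spinal cord *Il5* alone passed, with 7.47 (adjusted p = 0.0425 in edgeR's quasi-likelihood test).

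Genes of brainstem monoamine neurons appeared in P8 libraries labelled cervical spinal cord, which entered no test here, at a sum of 178 CPM in the WT library and 105 CPM in SCA7 1, the latter from 34 counts, and of 9.44 CPM in SCA7 2, from 1 count. The 4 libraries labelled medulla of that age had 20.9 to 41.3 CPM.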

How the results depend on the processing

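The count of 0 genes at P8 became 31 (8 lower, 23 higher) with all libraries thinned to 95917 counts, which left 3688 genes, and 51 (8 lower, 43 higher) with a replicate block. The labels give no shared litter or day for a number, and the deviations of same-numbered libraries correlated at 0.14 with 2 pairs, so the numbers were not treated as pairs. Leaving out 1 library gave 0 to 251 genes, with 251 without WT 1 (194 lower, 57 higher), 60 without WT 2, 12 without SCA7 1 and 0 without SCA7 2. Genes called there were led by mitochondrial genes (*ATP8*, *ND4L*), pseudogenes (*Atp6v0c-ps2*) and muscle genes (*Myh8*, *Mylpf*). The other 11 alternatives called 0, of which depth as a block and a level of at least 100 CPM were chosen after seeing the data, with 99 to 1482 genes at an unadjusted p under 0.05.

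*Hoxb9* passed with thinning (2.22, adjusted p = 0.00717 in edgeR) and with the replicate block (1.47, adjusted p = 5.26e-05), and its adjusted p was 1 in the reported fit. *Col1a1* turned from -0.37 to 2.83 (adjusted p = 1.16e-05 in edgeR) without WT 2 and was -2.19 without SCA7 2. *Ccr9* and *Cd3d* passed with the block and without either WT library, and *Acta1* with thinning and without WT 1. The median of the myelin list, -0.52, ran from -0.70 to -0.33 with 1 library left out, -0.33 being without WT 1. With library totals in place of TMM the median of all genes was -0.09.

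The 8 genes of the difference between 9 weeks and P8 became 1 with DESeq2, 26 with library totals, 1 with 10 counts in every library, 4 without a filter, 0 with bias-adjusted quasi-likelihood, 13 with the replicate block, 1 with the 9-week libraries labelled cervical spinal cord and 78 with depth as a block, the last 2 chosen after seeing the data. With 1 library left out they ran from 0 (without P8 SCA7 1, and without 9-week WT 5) to 424 (without P8 WT 1). For 5 weeks minus P8, the count of 0 became 18 with DESeq2, 1 with 10 counts in every library and 160 with the block, and ran from 0 to 125 with 1 library left out, 125 being without P8 SCA7 2. The cause of these shifts was not tested.

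Depth limits SCA7 2, where 3 counts are worth 31.3 CPM of the library total, so that a gene below that level cannot be told from one that is absent there. Depth is not its only difference. *Gm10080* was at 136 CPM of the library total in SCA7 2 and at most 0.477 CPM in the deep P8 libraries labelled medulla. Among the WT libraries labelled medulla at 9 weeks it ran from 131 to 193 CPM in shallow ones and was at most 0.195 CPM in deep ones. The P8 test thus sets unlike kinds of library side by side, and the part of this in the results was not tested.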

Other observations

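Gene groups not described above lay near the median of all genes or rested on few counts. Of 15 genes that mark the cerebellum 3 had both SCA7 values above both WT values and 0 both below, with a median log2 fold change of 0.49 that was -4.39 without SCA7 1, where that of all genes was -1.39. *Zic1*, a transcription factor of the dorsal neural tube as well as of cerebellar granule cells, gave 62.7 and 80.9 CPM in WT and 113 and 90.6 CPM in SCA7. Of 14 endothelial and pericyte genes 4 lay below and 0 above, with a median of -0.17 that was 0.02 without WT 2. *Rgs5*, a regulator of G protein signals in pericytes, gave 187 and 248 CPM in WT and 158 and 260 CPM in SCA7.

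Of 16 circadian clock genes 4 lay below and 4 above both WT values, with a median of 0.00. For 14 glucocorticoid-induced genes the median was 0.02, and *Tsc22d3*, a direct target of the receptor, gave 112 and 90.6 CPM in WT and 94.5 and 90.6 CPM in SCA7. The 2 cold-inducible RNA-binding proteins, *Cirbp* and *Rbm3*, which were higher in SCA7 past the threshold at 9 weeks under both tissue labels, had log2 fold changes of 0.33 (SE 0.17) and 0.21 (SE 0.28) at P8. *Cirbp* gave 101 and 99.5 CPM in WT and 120 and 147 CPM in SCA7, the last from 13 counts.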
